A study of Drosophila melanogaster with 6 samples.

Results

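The cell cycle and DNA replication genes examined here were 41 named genes of Drosophila melanogaster, from the cyclins and kinases that drive the cycle to the factors that license and copy DNA and part the chromosomes. They were chosen by name. A gene entered through every probe set whose annotation named it and no other gene, which gave 30 genes with 1 probe set each, of 10844 genes on the array that had such a probe set. The other 11, dap, geminin, Mcm7, RnrS, stg, Cdk1, CycA, polo, aurA, BubR1 and pav, had no such probe set and are not analysed here.

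The samples were imaginal discs of the eye and antenna, sheets of larval epithelium from which the adult eye, antenna and head capsule form, taken from wandering larvae of the third instar raised at 25 °C, with 100 discs in each sample. One group of 3 carried GMR-Gal4 and UAS-RasV12 (genotype GMR Gal4/UAS RasV12), which makes the small GTPase Ras in an activated form. The other group of 3 carried GMR-Gal4 and UAS-sSpi (genotype GMR Gal4/+; UAS sSpi/+), which gives a secreted form of Spitz, the ligand of the EGF receptor that acts upstream of Ras. The titles call the samples of a group biological replicates; no other source of their independence is given, and the sample description of the sSpi arrays names RasV12, so groups were taken from the titles. Both groups share the driver and a pathway transgene, and no discs without a transgene were analysed here, so every value sets RasV12 against sSpi and none against the wild-type state. GMR-Gal4 acts in cells of the eye disc that the morphogenetic furrow has already passed, while the RNA came from whole discs that also hold dividing cells ahead of the furrow and the antennal disc.

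A cell cycle starts when Cyclin D with Cdk4 and Cyclin E with Cdk2 release E2F factors from the retinoblastoma protein, and E2F then turns on the genes of DNA synthesis. Origins are licensed by the origin recognition complex, the Cdt1 protein and the MCM helicase, and mitosis follows when Cyclins A, B and B3 activate Cdk1, until the anaphase-promoting complex destroys the cyclins and securin. In the eye disc, cells divide freely ahead of the morphogenetic furrow, stop in G1 inside it, and some of them divide once more behind it in a band called the second mitotic wave. Signalling through the EGF receptor is known to act on survival, differentiation and the G2 to M step of those cells. The comparison of RasV12 with sSpi asks whether the transcripts of this machinery differ between activated Ras and a secreted ligand as the driver of the pathway.

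The 6 arrays were on 1 common scale, with median signals from 39.4 to 41.4. RasV12 replicate 1 stood apart on the second principal component of all probe sets tested, at 20.3 against -13.4 and -7.60 on the other RasV12 arrays and -2.69 to 3.93 on the sSpi arrays, and its 18S ribosomal RNA control read 157 against 24.7 to 30.4 elsewhere, so members' differences whose sign or size turned on it are also given without it. The labelled tissue was checked with 8 marker lists, and summed signals are given for each. The 6 eye disc genes summed to 1895 to 2243 in RasV12 and 2021 to 2492 in sSpi, with ey called lower in RasV12 (277 ± 10.5 in RasV12 and 394 ± 39.1 in sSpi, SD, n = 3), and 3 antennal genes to 884 to 996 in RasV12 and 795 to 957 in sSpi, with none called. Markers of dividing neuroblasts (5 genes) summed to 302 to 315 in RasV12 and 309 to 392 in sSpi, with none called; 2 of them were below the signal needed for testing, ase (26.8 ± 4.12 in RasV12 and 16.6 ± 4.74 in sSpi, SD, n = 3) and wor (9.01 ± 2.17 in RasV12 and 12.1 ± 6.86 in sSpi, SD, n = 3). Glial markers (4 genes) summed to 925 to 1037 in RasV12 and 1406 to 1514 in sSpi, with Gli called lower in RasV12 (738 ± 43.0 in RasV12 and 1189 ± 39.8 in sSpi, SD, n = 3). Without Gli the sums were 232 to 277 in RasV12 and 241 to 327 in sSpi, and no other glial gene passed. All RasV12 values of nrv2 were the higher ones (99.3 ± 9.68 in RasV12 and 62.9 ± 22.0 in sSpi, SD, n = 3). Those of moody were all the lower ones (57.4 ± 18.2 in RasV12 and 93.2 ± 10.9 in sSpi, SD, n = 3). For repo the groups overlapped (99.4 ± 13.5 in RasV12 and 127 ± 22.8 in sSpi, SD, n = 3). Hemocyte markers (4 genes) summed to 175 to 289 in RasV12 and 161 to 285 in sSpi, and the 1 muscle gene measured, Mlc2, read 282 to 557 in RasV12 and 163 to 655 in sSpi. On sSpi replicate 2, 5 salivary gland genes summed to 789.6, against 91.0 to 187 on the other 5 arrays, so that array is left out as well in 1 setting. On sSpi replicate 1, 3 fat body genes summed to 238, against 70.5 to 85.1 on the other 5 arrays. The part of these markers in the values below was not tested.

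None of the 30 cell cycle and replication genes differed between RasV12 and sSpi at a limma adjusted p under 0.05, where 2.61% of all 8380 probe sets tested did. Differences in log2(signal + 16), RasV12 minus sSpi, ran from -0.28 for PCNA, the sliding clamp of DNA polymerase, to 0.52 for Bub1, a spindle checkpoint kinase, with a median of -0.072 beside -0.0072 over all probe sets tested. With the sign set aside, the median size was 0.141, beside 0.138 over all probe sets tested, so the members' sizes were typical of the array. The 219 probe sets that passed had a median size of 0.79 and a smallest of 0.43, so only Bub1 among the members was as large as any of them. Of the 30, 13 lay above 0 and 17 below. At an unadjusted p of 0.05 there were 2, Incenp and Bub1, or 6.67%, where 15.2% of all probe sets tested had such a p. The groups did not overlap for 7 members, or 23.3%, near the 21.3% of all probe sets tested; 2 members were higher and 5 lower in RasV12, beside 10.2% and 11.1% of all probe sets tested.

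**Figure D1:**
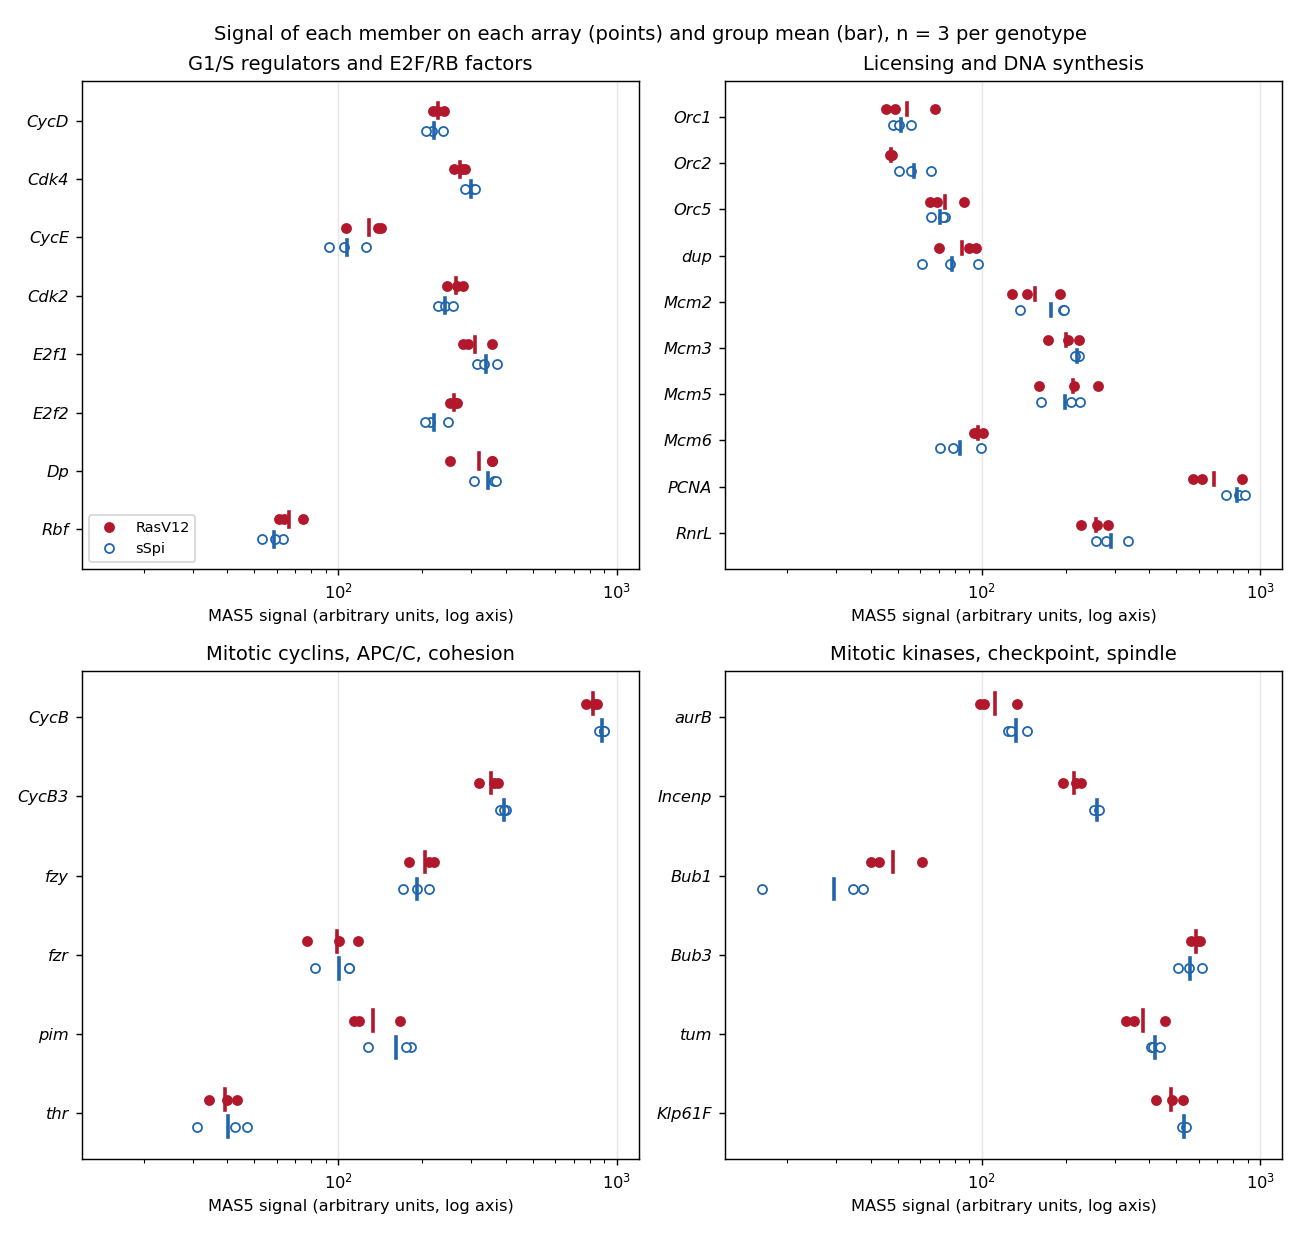
Signal of each of the 30 genes (log axis, arbitrary MAS5 units) on the 3 RasV12 arrays (filled) and the 3 sSpi arrays (open, below), with the mean of each group as a bar. RasV12 and sSpi points of most genes share 1 range; Incenp, Orc2, Cdk4, CycB and CycB3 lie lower and E2f2 and Bub1 higher in RasV12 without overlap, and levels of different genes are not comparable.

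How large a difference the arrays could have missed is given by the 95% intervals of the fit, each taken alone. With all arrays in the fit, the intervals of 29 of the 30 genes lay between -0.63 and 0.56. These are the lower bound of pim and the upper bound of CycE. In that fit they exclude a level in RasV12 more than 1.55-fold below or 1.47-fold above that in sSpi on this scale. The exception was Bub1, with an interval of 0.027 to 1.004, or up to 2.01-fold. Intervals of the fits with arrays left out are not given here. Without RasV12 replicate 1, the difference was -0.41 ± 0.15 (SE) for pim and 0.16 ± 0.15 for CycE. Without sSpi replicate 2 as well, it was -0.55 ± 0.11 for pim and 0.073 ± 0.16 for CycE. The difference of pim thus moved towards the lower bound. With these SEs its 95% interval reaches below -0.63 in both fits, so the 1.55-fold exclusion does not hold there. The median width of a member's interval was 0.577, and that over all probe sets tested 0.62, so the members were measured about as finely as the array as a whole. These bounds hold for the discs as a whole: in bulk RNA, fewer cells of a type and less RNA per cell cannot be told apart, and a change limited to the cells behind the furrow is diluted by the rest.

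**Figure D2:**
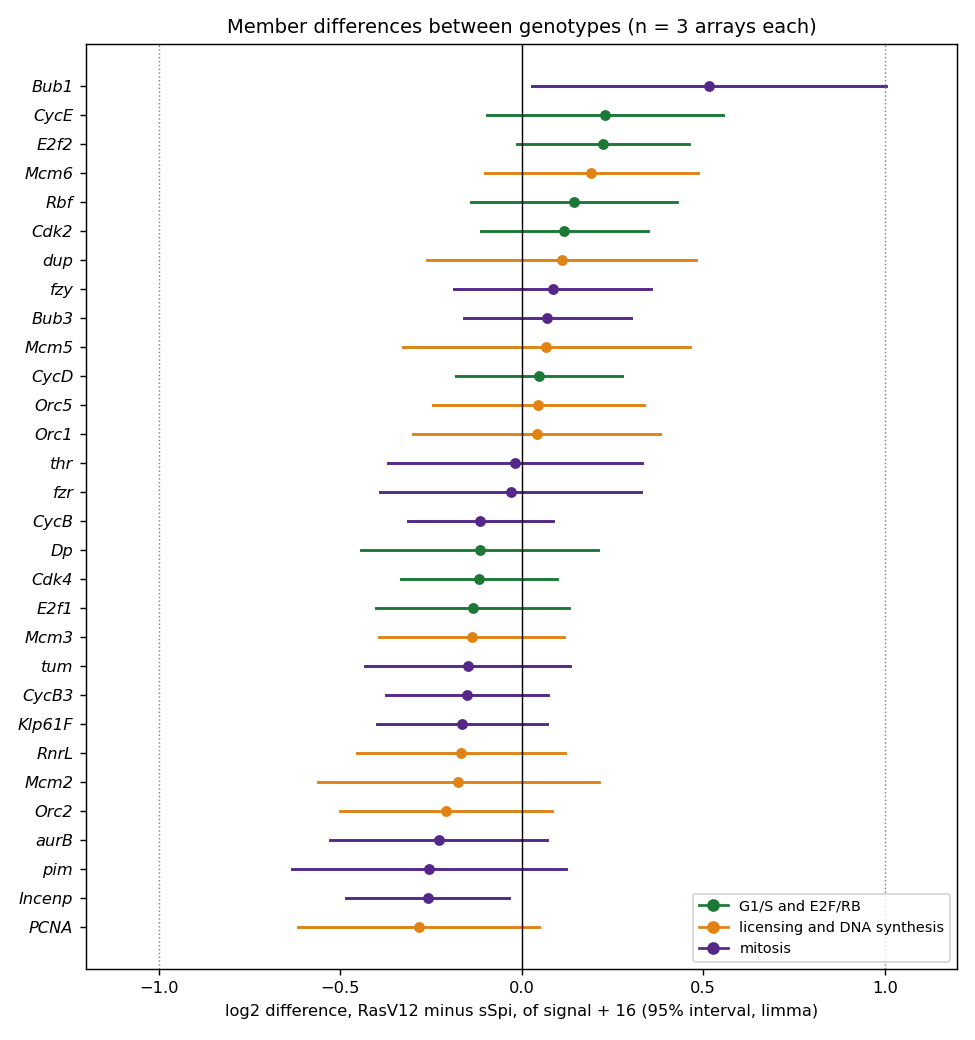
Difference in log2(signal + 16), RasV12 minus sSpi, of each gene with its 95% interval from limma (n = 3 arrays per genotype), ordered from highest to lowest and coloured by role; dotted lines mark -1 and 1. Intervals of 28 genes include 0, that of Bub1 lies above it and that of Incenp below it.

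Among the G1 regulators, CycE, whose cyclin with Cdk2 starts S phase, had signals of 142, 138 and 106 in RasV12 discs, against 105, 92.2 and 125 in sSpi discs. RasV12 replicates 1 and 2 were above every sSpi array, while replicate 3 fell inside the sSpi range. The difference was 0.23 ± 0.14 (SE, limma adjusted p = 0.51, n = 3), and 0.16 ± 0.15 without RasV12 replicate 1. Its kinase gene Cdk2 had 279, 267 and 245 in RasV12 discs, against 227, 241 and 257 in sSpi discs, with overlapping groups and a difference of 0.12 ± 0.10. CycD, whose cyclin promotes growth and passage through G1, had 218, 239 and 226 in RasV12 discs, against 216, 206 and 238 in sSpi discs. These were 6 nearly equal values, and the difference of 0.048 ± 0.10 had an interval of -0.18 to 0.28. Cdk4, the partner kinase of Cyclin D, had 278, 259.8 and 285 in RasV12 discs, against 303, 285 and 309 in sSpi discs. The ranges met at 285 without crossing, with a difference of -0.12 ± 0.096 (limma adjusted p = 0.62, n = 3). The Cdk inhibitor gene dap, whose product stops Cyclin E with Cdk2 in cells leaving the cycle, is among the genes not analysed here.

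The 4 factors of the E2F and retinoblastoma switch were all measured. E2f2, which encodes the repressing E2F of the fly, had 267, 253 and 261 in RasV12 discs, against 213, 204 and 247 in sSpi discs. All 3 RasV12 values were the higher ones, by a narrow margin over sSpi replicate 3. The difference was 0.22 ± 0.11 with an interval of -0.014 to 0.46 (limma adjusted p = 0.36, n = 3). An exact two-sided permutation test gave p = 0.1, the smallest that 3 arrays against 3 allow. Any gene whose groups do not overlap must give that value, so it adds nothing to the lack of overlap. E2f1, which encodes the activating E2F, had a difference of the opposite sign, with 293, 355 and 279 in RasV12 discs, against 315, 371 and 333 in sSpi discs, overlapping groups and a difference of -0.14 ± 0.12. Dp encodes the partner that both E2F proteins need to bind DNA. Its signals were 354, 356 and 251 in RasV12 discs, against 363, 307 and 367 in sSpi discs, with RasV12 replicate 3 alone below the rest. Rbf, the retinoblastoma gene that holds E2F in check, had 61.1, 63.6 and 74.7 in RasV12 discs, against 63.1, 53.2 and 59.5 in sSpi discs, overlapping groups and a difference of 0.14 ± 0.13.

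Of 8 origin licensing genes tested, none passed, 5 differences lay above 0 and 3 below, and the median was 0.044. That direction rested on RasV12 replicate 1: without it the median was -0.092 and 6 of the 8 lay below 0. Orc1, the subunit of the origin recognition complex whose level rises through E2F, had 68.2, 48.7 and 45.2 in RasV12 discs, against 47.9, 55.9 and 50.6 in sSpi discs. RasV12 replicate 1 was the highest array, 1.45 times the mean of the other RasV12 arrays, and the difference was 0.042 ± 0.15 with it and -0.098 ± 0.13 without it. Orc2, another subunit, had 46.7, 47.4 and 47.6 in RasV12 discs, against 55.8, 50.4 and 65.9 in sSpi discs, the tightest RasV12 values of any member. Its groups did not overlap, and the difference of -0.21 ± 0.13 did not pass (limma adjusted p = 0.50, n = 3). Orc5 had 86.7, 69.3 and 65.5 in RasV12 discs, against 73.7, 72.5 and 65.7 in sSpi discs, with overlapping groups and a difference of 0.046 ± 0.13, or -0.054 ± 0.12 without RasV12 replicate 1. The gene dup encodes Cdt1, which loads the helicase. Its signals were 95.6, 89.9 and 70.5 in RasV12 discs, against 61.1, 77.0 and 97.4 in sSpi discs, and sSpi spanned the whole RasV12 range.

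The MCM proteins form the ring that unwinds DNA at the fork, and 4 of the 5 named were measured, 2 above 0 and 2 below (3 below without RasV12 replicate 1). Mcm2 had 190.2, 146 and 128 in RasV12 discs, against 137, 196 and 197 in sSpi discs. Both groups held high and low arrays, and the difference was -0.17 ± 0.17 with an interval of -0.56 to 0.21, and -0.32 ± 0.16 without RasV12 replicate 1. Mcm5 had 261, 214 and 160.5 in RasV12 discs, against 209.8, 163 and 226 in sSpi discs, with the highest and the lowest array both in RasV12. Its difference was 0.067 ± 0.18 with all arrays and -0.086 ± 0.16 without RasV12 replicate 1. Mcm3 had 224, 203 and 173 in RasV12 discs, against 222, 223 and 216 in sSpi discs. The sSpi values were nearly equal and the RasV12 values were spread, replicate 1 barely above sSpi and replicates 2 and 3 below it. Mcm6 was the reverse, with 95.5, 101 and 93.7 in RasV12 discs, against 79.1, 71.1 and 99.7 in sSpi discs, close values in RasV12 and a spread in sSpi. The sixth subunit gene, dpa (Mcm4), came from a wider list and is described with it.

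Both measured members of the DNA synthesis group, PCNA and RnrL, lay below 0. In the wider replication list, described below, 16 of 34 probe sets lay above 0 and 18 below. PCNA had 857, 617 and 572 in RasV12 discs, against 752, 837 and 877 in sSpi discs. RasV12 replicates 2 and 3 were below every sSpi array, while RasV12 replicate 1 was second highest of the 6. The difference was -0.28 ± 0.15 with an interval of -0.62 to 0.049 (limma adjusted p = 0.42, n = 3). Without RasV12 replicate 1 it was -0.46 ± 0.10 and passed (limma adjusted p = 0.042, 2 arrays against 3); in that fit 1 of the 30 members passed, or 3.33%, where 4.40% of all probe sets tested did. It missed the threshold again when sSpi replicate 2 was left out too, at -0.44 with an adjusted p of 0.1 (limma, 2 arrays against 2). RnrL, the large subunit of ribonucleotide reductase, which makes the building blocks of DNA, had 285, 258 and 226 in RasV12 discs, against 278, 258 and 335 in sSpi discs, and its difference was -0.17 ± 0.13. RnrS, the small subunit, is not analysed here.

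The 2 mitotic cyclin genes measured gave tight values whose groups did not overlap, as was so for 21.3% of all probe sets tested. CycB, whose cyclin drives entry into mitosis with Cdk1, had 829, 847 and 775 in RasV12 discs, against 863, 896 and 895 in sSpi discs. CycB3, a cyclin destroyed later in mitosis, had 319, 374 and 361 in RasV12 discs, against 399, 381 and 394 in sSpi discs. In both, every RasV12 array was below every sSpi array, yet the sizes were -0.11 ± 0.089 and -0.15 ± 0.099 (limma adjusted p = 0.60 and 0.52, n = 3), or 1.08-fold and 1.11-fold lower in RasV12. CycA, stg, the Cdc25 phosphatase gene that triggers mitosis, and Cdk1 are not analysed here.

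Exit from mitosis runs through the anaphase-promoting complex, and all 4 named genes were measured. The activator genes fzy (Cdc20) and fzr (Cdh1), which direct the complex in mitosis and in G1, had 179.8, 221 and 212 in RasV12 discs, against 212, 171 and 192 in sSpi discs for fzy and 77.4, 118 and 100.2 in RasV12 discs, against 109, 82.5 and 109 in sSpi discs for fzr. Both had overlapping groups, with differences of 0.085 ± 0.12 and -0.030 ± 0.16, or 0.17 ± 0.11 and 0.11 ± 0.14 without RasV12 replicate 1. The gene pim encodes securin, which the complex destroys to free separase. It had 167, 114 and 119 in RasV12 discs, against 182, 128 and 174 in sSpi discs: RasV12 replicate 1 was within the sSpi range and replicates 2 and 3 were below it. Its difference was -0.26 ± 0.17 with all arrays (limma adjusted p = 0.53, n = 3) and -0.41 ± 0.15 without RasV12 replicate 1 (adjusted p = 0.17). The separase gene thr, dim on this array, had 40, 43.2 and 34.3 in RasV12 discs, against 31.0, 42.6 and 46.9 in sSpi discs, with sSpi on both sides of RasV12.

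Both chromosomal passenger genes had differences below 0. Incenp, the scaffold of the passenger complex, had 219, 227 and 196 in RasV12 discs, against 260.0, 252 and 264 in sSpi discs. The groups did not overlap, and the difference was -0.26 ± 0.10, or 1.197-fold lower in RasV12, with an interval of -0.48 to -0.034 (limma unadjusted p = 0.029, adjusted p = 0.25, n = 3). In 15 other settings it lay between -0.30 and -0.20, and its adjusted p between 0.17 and 0.48. The kinase of the same complex, aurB, had 133, 98.4 and 102 in RasV12 discs, against 124, 128 and 146 in sSpi discs. RasV12 replicate 1 again lay inside the sSpi range and the other RasV12 arrays below it, with a difference of -0.23 ± 0.13 (limma adjusted p = 0.47, n = 3), or -0.35 ± 0.11 without RasV12 replicate 1 (adjusted p = 0.13).

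Of the spindle checkpoint genes, Bub1 had the largest difference of any member, with 42.9, 61.3 and 40.1 in RasV12 discs, against 34.6, 37.6 and 16.3 in sSpi discs. All RasV12 values were the higher ones, but the spread was wide in both groups and the lowest sSpi array, replicate 3, read less than 1 unit above the pseudocount of 16. The difference was 0.52 ± 0.22 with the interval given above (limma unadjusted p = 0.041, adjusted p = 0.30, n = 3). It was 0.26 to 0.75 over 14 other settings, with an adjusted p of 0.23 to 0.60. Its checkpoint partner Bub3 had 608, 594 and 562 in RasV12 discs, against 508, 555 and 619 in sSpi discs, with overlapping groups and a difference of 0.071 ± 0.10. Klp61F, the kinesin that pushes spindle poles apart, had 526, 481 and 422 in RasV12 discs, against 535, 524 and 542 in sSpi discs. The gene tum, which acts in cytokinesis, had 454, 353 and 330.0 in RasV12 discs, against 406, 411 and 438 in sSpi discs. Each had tight sSpi values and 2 RasV12 arrays below them, with differences of -0.16 ± 0.10 and -0.15 ± 0.13, or -0.24 ± 0.095 and -0.28 ± 0.093 without RasV12 replicate 1 (limma adjusted p = 0.21 and 0.13).

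Without RasV12 replicate 1, the difference of 4 members changed sign, namely Orc1, Orc5, Mcm5 and fzr, and that of 14 others moved by over 1.5 times with its sign kept. Of the 14, those not given above were then -0.22 for Mcm3, -0.19 for Dp, and between -0.086 and 0.077 for CycB3, thr, dup, Bub3, CycD and Cdk2.

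The replication genes varied between arrays of 1 genotype in a shared way. Over the 10 replication genes (licensing and DNA synthesis), the mean deviation from each gene's average over 6 arrays, in log2, was 0.16, -0.039 and -0.20 on RasV12 replicates 1 to 3, against -0.053, -0.014 and 0.14 on sSpi replicates 1 to 3. Thus the highest and the lowest array were both RasV12, and sSpi replicate 3 lay close to RasV12 replicate 1. Of the 10, 8 had their highest RasV12 signal on replicate 1, where 42.2% of all probe sets tested did, and 9 had their lowest on replicate 3, where 36.1% did. PCNA and Mcm5 show it most plainly, with the signals above. The mean over all probe sets tested stayed between -0.0081 and 0.0073 on every array. The 12 mitosis genes had a narrower range, 0.0047, 0.020 and -0.11 on RasV12 replicates 1 to 3, against 0.039, -0.011 and 0.059 on sSpi replicates 1 to 3, and the 8 G1 and E2F genes had 0.051, 0.073 and -0.050 on RasV12 replicates 1 to 3, against -0.037, -0.097 and 0.060 on sSpi replicates 1 to 3. The 45 probe sets of a wider mitosis list, described below, had 0.097, -0.0093 and -0.15 on RasV12 replicates 1 to 3. On sSpi replicates 1 to 3 they had 0.042, -0.041 and 0.059. Of them, 57.8% had their highest RasV12 signal on replicate 1 and 73.3% their lowest on replicate 3. The 2 spindle and cytokinesis members had 0.13, -0.11 and -0.25 on RasV12 replicates 1 to 3. The order of the RasV12 arrays was thus not particular to replication genes. Within 1 genotype the replication genes spanned 0.36 on the log2 scale among RasV12 arrays and 0.20 among sSpi arrays, beside a median difference of -0.048 between genotypes.

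**Figure D3:**
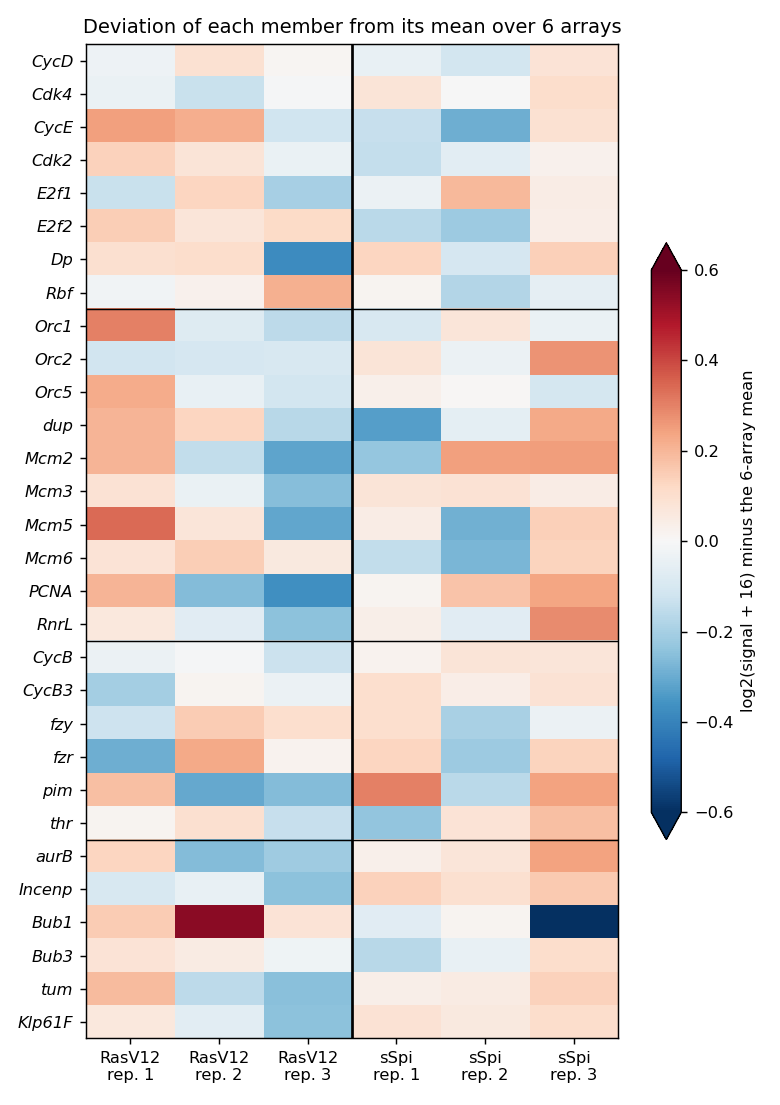
Log2(signal + 16) of each gene minus its own mean over the 6 arrays, RasV12 arrays left of the line and sSpi arrays right of it, with genes in blocks by role (G1 and E2F, replication, mitotic cyclins and exit, kinases and spindle). In the replication block, RasV12 replicate 1 and sSpi replicate 3 are mostly above and RasV12 replicate 3 mostly below the gene's own mean.

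The genes of the ecdysone response, the steroid signal that times the end of larval life, also differed between arrays of 1 genotype. From a list of 20 written after earlier results of these data were known, 15 such genes were tested. Each was read only through its tested probe set with the highest mean signal. Their mean deviation was -0.35, 0.49 and 0.55 on RasV12 replicates 1 to 3, against -0.011, -0.15 and -0.52 on sSpi replicates 1 to 3. The steroid-induced gene ImpE1 had 11.8, 182 and 253 in RasV12 discs, against 144, 92.7 and 11.7 in sSpi discs, and ImpE2 had 2472, 4522 and 5412 in RasV12 discs, against 2925, 2972 and 1375 in sSpi discs. Between genotypes, 12 of the 15 differences lay above 0, with a median of 0.37, and none passed (limma), while 5, or 33.3%, had an unadjusted p under 0.05, beside 15.2% of all probe sets tested. Without RasV12 replicate 1, 4 of the 15 passed, or 26.7%, beside 4.40% of all probe sets tested. Both ImpE1 and ImpE2 were low on RasV12 replicate 1 and sSpi replicate 3, the arrays on which the replication genes were high. Not all of the list did the same. Of the 15, 11 had their lowest RasV12 signal on replicate 1, or 73.3%, beside 36.9% of all probe sets tested, and 1, Cth, had its highest there. On sSpi replicate 3, 3 of the 15, Kr-h1, usp and ftz-f1, had their highest sSpi signal. The part of larval stage in the replication values was not tested.

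Wider lists of cell cycle genes were read for the same comparison. Of 107 other genes, 92 had a single-gene probe set and 89 were tested with 94 probe sets. None passed (limma, adjusted p under 0.05), while 4 of 94, or 4.26%, had an unadjusted p under 0.05, below the 15.2% of all probe sets tested. The median difference was -0.047, with 41 above 0 and 53 below. Among 34 replication probe sets, dpa, an MCM subunit gene that is not a member, had 275, 203 and 204 in RasV12 discs, against 279.8, 288 and 304 in sSpi discs. Its groups did not overlap and its difference was -0.35 ± 0.13 (limma adjusted p = 0.23, n = 3). Mcm10, a factor that helps start the helicase, had a difference above 0, with 64.2, 56.2 and 54.3 in RasV12 discs, against 48.1, 40.5 and 46.6 in sSpi discs, a difference of 0.28 ± 0.13 (adjusted p = 0.34).

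Of 45 mitosis probe sets, 17 lay above 0 and 28 below. The gene pbl, which also acts in cytokinesis, had 205, 167 and 155 in RasV12 discs, against 258, 211 and 216 in sSpi discs. Its groups did not overlap, and the difference was -0.35 ± 0.13 (limma adjusted p = 0.23, n = 3). Klp67A, a kinesin that shortens spindle microtubules, had a difference of -0.34 ± 0.15 (adjusted p = 0.32), with overlapping groups. Among 15 probe sets of G1 and growth regulators, Max, whose protein pairs with Myc, had 176, 186 and 178 in RasV12 discs, against 135, 102 and 153 in sSpi discs. All RasV12 values were the higher ones, with a difference of 0.44 ± 0.14 (limma adjusted p = 0.16, n = 3). The checkpoint kinase gene grp (Chk1) had a difference of 0.23 ± 0.12 (adjusted p = 0.40).

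The wider replication list had the same array order at its ends as the members, 0.16, -0.045 and -0.15 on RasV12 replicates 1 to 3, against -0.085, -0.033 and 0.15 on sSpi replicates 1 to 3. On RasV12 replicate 1, 27 of its 34 probe sets had their highest RasV12 signal, or 79.4%. Without that array, the median difference was -0.15, against -0.063 with it, and that of the 10 replication members was -0.15, against -0.048. The wider lists then had 2 of 94 past the threshold, or 2.13%, beside 4.40% of all probe sets tested. These were dpa at -0.48 ± 0.094 (limma adjusted p = 0.025, 2 arrays against 3) and the checkpoint gene mad2 at -0.44 ± 0.10 (adjusted p = 0.047). Without sSpi replicate 2 as well, neither passed, though the differences were as large, -0.49 for dpa (limma adjusted p = 0.07, 2 arrays against 2) and -0.45 for mad2 (adjusted p = 0.11).

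**Figure D4:**
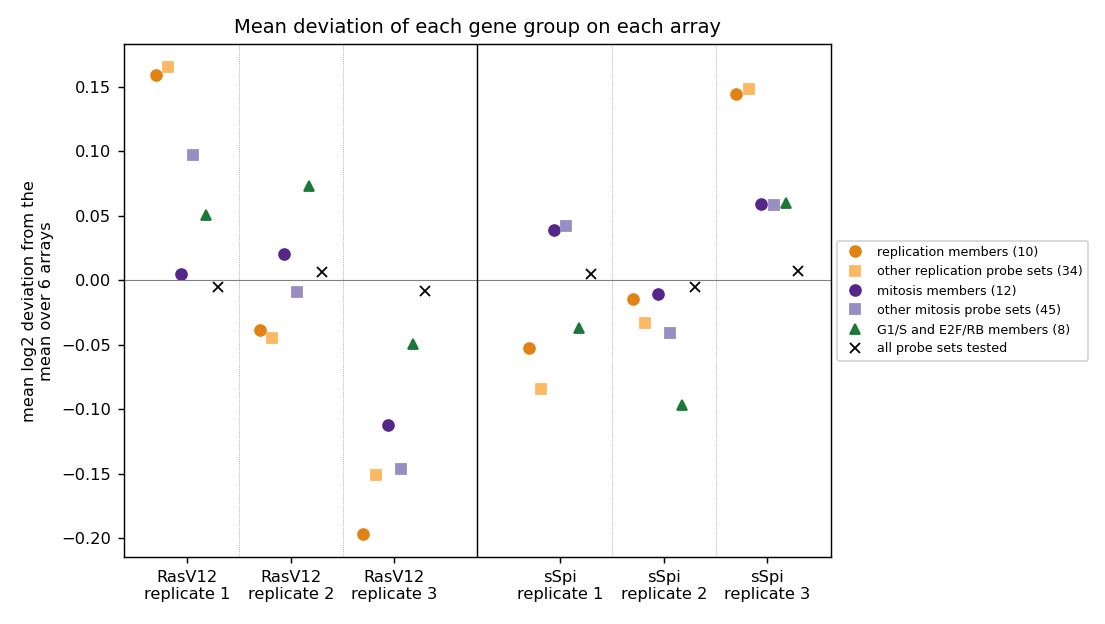
Mean deviation of each gene group from its average over 6 arrays, in log2(signal + 16), on each RasV12 array (left) and each sSpi array (right); points of 1 array are set side by side for legibility and numbers in brackets are probe sets. Members and other genes of replication lie together on every array, highest on RasV12 replicate 1 and lowest on RasV12 replicate 3, while all probe sets tested stay near 0. The other mitosis probe sets are also highest and lowest on those arrays.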

How the data were processed

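Gene expression was measured on 6 single-colour Affymetrix arrays from biotin-labelled cRNA made of 5 ug of total RNA. The deposited intensities are linear MAS5 signals, 1 per probe set. The submitters' processing notes name MAS5; neither its version nor a genome build is stated in the sources used here. After a trim of 2% at each end, all arrays averaged 100.0. The table had 14010 probe sets, 44 of them controls, and no unmatched column. Genes were named from the platform annotation, with symbols brought up to date from the NCBI table of assembly Release 6 plus ISO1 MT: 12443 probe sets had 1 symbol, 327 several and 1196 none. Testing covered the brightest 60% of probe sets by mean over 6 arrays, 8380 with means above 23.4, which kept all 30 members. Differences in log2(signal + 16) were fitted with limma 3.58.1 (R 4.3.3; lmFit, eBayes with trend). Tests were two-sided, with p-values adjusted by Benjamini and Hochberg's method over the 8380 and called under 0.05, and the fit was tested on simulated data. The pseudocount shrinks folds of dim genes, and the number of arrays limits the precision.

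The members and lists were chosen with earlier results of these data known. Every member was named; of the wider lists, the genes past the threshold or else the 2 with the smallest p, plus mad2, which was named after its values were seen. Arrays of the 2 genotypes that share a replicate number did not deviate together (r from -0.14 to -0.04), so no pairing was assumed. The alternatives were pseudocounts of 1 and 64, no filter, the upper 40%, quantile normalization, median scaling, no trend, a replicate block, arrays left out and 1 probe set per gene. Figures used matplotlib 3.10.9 under Python 3.11.15.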

Additional observations from a re-analysis of the deposited data

How the results depend on the processing

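No member passed under any of 16 alternatives except the fit without RasV12 replicate 1, in which PCNA did (1 member, and dpa and mad2 among the wider lists, 2 in all; dpa at -0.48). The count of members was therefore 0 to 1, and that of the wider lists 0 to 2, with single arrays left out. The count over all probe sets was 219, and 138 with no filter, 159 with the replicate block and 86 to 369 with single arrays left out, the highest without RasV12 replicate 1. With the replicate block no member and no gene of the wider lists passed. The median member difference stayed below 0, from -0.12 with the upper 40% of probe sets to -0.00066 without RasV12 replicate 3. That filter leaves out dim members.

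Of 445 single values of members under the alternatives, 428 kept their direction without passing, 1 passed and 16, of 7 genes near 0, changed sign without passing. All 16 arose where arrays were left out, singly or as the pair RasV12 replicate 1 and sSpi replicate 2. Over those 7 settings the difference ran from -0.27 to 0.043 for Dp, -0.098 to 0.13 for Orc1, -0.054 to 0.11 for Orc5, -0.027 to 0.25 for dup, -0.21 to 0.24 for Mcm5, -0.15 to 0.11 for fzr and -0.14 to 0.069 for thr. The array-to-array spread limits what can be seen: the median interval of a member was 0.577 wide in log2.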
